A study of Caenorhabditis elegans with 4 samples.

Results

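Binding of EFL-1 was examined at 52 genes of the Caenorhabditis elegans small RNA pathways, a list of named genes drawn up with earlier results of these data known. EFL-1 belongs to the E2F family of transcription factors and represses genes together with LIN-35, the worm retinoblastoma protein. ChIP-seq, in which DNA bound to a protein is pulled down with an antibody and sequenced, was performed with a rabbit polyclonal antibody to EFL-1 on hermaphrodites of strain MT10430, genotype lin-35(n745), at the first larval stage (L1). The 4 samples were 2 EFL-1 ChIP replicates and 2 inputs of total chromatin DNA. All of them carried the lin-35 mutation, so no animals with intact lin-35 serve as a comparison, and whether each replicate was a culture of its own is not stated in the labels. Worms were grown at 20 °C on E. coli HB101 per the labels' protocols, although the stage label also carries the tag 26dC. Whole animals were used, so that a peak cannot be assigned to the germline or to any somatic tissue.

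Small RNA pathways silence or license transcripts through Argonaute proteins that carry short guide RNAs. In worms, Dicer and its partners make primary small RNAs from double-stranded RNA, and RNA-dependent RNA polymerases with the mutator proteins amplify them into secondary small interfering RNAs. Nuclear Argonautes and the NRDE proteins act on nascent transcripts, microRNAs have their own Argonautes, and SID proteins carry double-stranded RNA between cells. Many of these proteins are known best for their roles in the germline, where they also guard inherited silencing.

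Of the 52 genes, 50 were matched by symbol in the RefSeq gene table of assembly WBcel235, and 49 of these are annotated as protein-coding. The table lists prg-2 as a pseudogene, and mut-2 and cde-1 were not matched by name and were not analysed here. Peak positions follow WS220, per the file headers, and the table gives the position of each gene but not its strand. A gene was therefore said to carry a peak when the centre of a combined peak lay within 500 bp of either end of the annotated gene. One end is the start and the other the end of the transcription unit, and which of them carried the peak cannot be told from the table. A gene with no peak at either end had none at its start under this window. The same measure was applied to the other 19922 protein-coding genes of the nuclear chromosomes.

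The effect of the difference between the assemblies was measured from the peaks themselves. A common shift moves peaks the same way at lower-coordinate and at upper-coordinate gene ends, so that the mean of both median distances estimates it. The size of this shift ranged from 6.5 bp on chromosome V to 53 bp on chromosome X, and over 18 segments, each chromosome being cut into 3 equal parts, it ran from -83.5 to 7.75 bp (WS220 minus WBcel235). This estimate was below 100 bp in each of the 18 segments. As it rests on medians over a segment, it does not bound the shift at a single gene. No position was converted, so every distance given here carries the shift. At windows of 400 and 600 bp, 16 and 18 genes of the list carried a peak. Only ekl-1 and mut-16, whose peak centres lay 462 and 499.5 bp away, were lost at 400 bp, and no gene was gained at 600 bp.

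Small RNA pathway genes carried an EFL-1 peak at an end about 1.87 times as often as other protein-coding genes. A combined peak lay at 18 of the 49 genes (36.7%, exact 95% interval 23.4 to 51.7%, which covers counting error only), against 3907 of 19922 other protein-coding genes (19.6%). Polymerases, mutator factors and Dicer partners made up most of the 18. By class, the peaks were at 8 of 15 polymerases and mutator factors (53.3%), 4 of 7 Dicer and ERI factors (57.1%), 2 of 3 NRDE factors (66.7%), 3 of 16 Argonautes (18.8%), 1 of 4 microRNA factors (25%) and 0 of 4 transport genes. The Argonaute share lay near the 19.6% of other genes. The smaller classes hold so few genes that their exact intervals, such as 9.43 to 99.2% for the NRDE factors and 0 to 60.2% for transport, include 19.6%. That of the Dicer and ERI factors, 18.4 to 90.1%, includes it too, and with the stronger 2483 combined peaks alone this class fell to 1 of 7 genes (14.3%), against 12.1% of other genes.

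**Figure D1:**
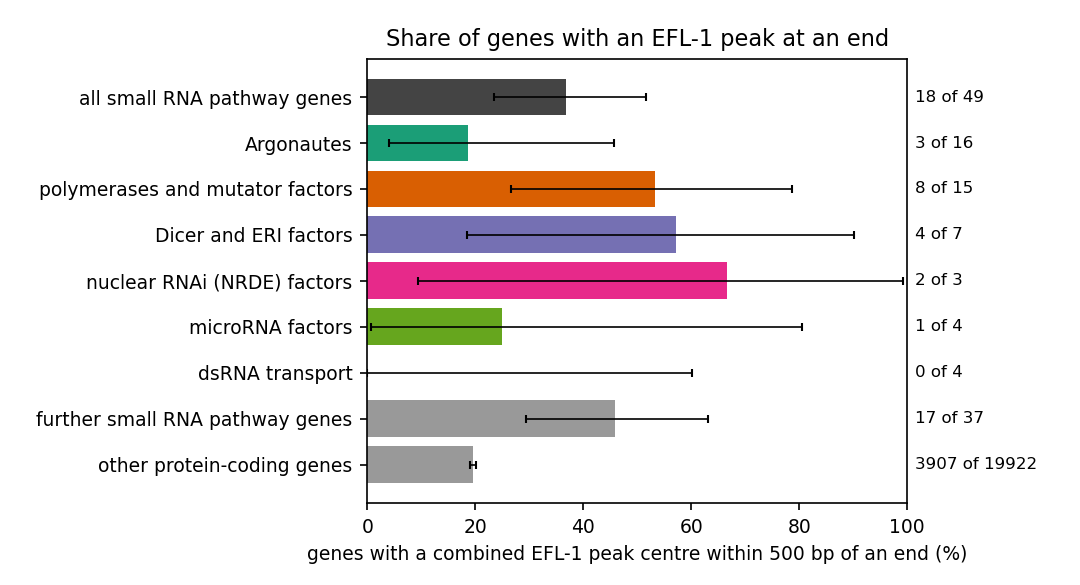
Share of genes, in percent, with a combined EFL-1 peak centre within 500 bp of an end, for the small RNA pathway genes and their classes, further pathway genes and other protein-coding genes; whiskers are exact 95% intervals over genes and the counts stand at the right. Polymerases and mutator factors (8 of 15) and Dicer and ERI factors (4 of 7) have higher shares than the other protein-coding genes (3907 of 19922), although the whisker of the Dicer and ERI factors reaches down to 18.4%, and Argonautes (3 of 16) lie beside them.

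The list differs from other genes in its spread over chromosomes and in gene span, and the share of genes with a peak varied with both. Other protein-coding genes carried a peak in 28.4% of cases on chromosome I and 29.8% on chromosome III but in 11.7% on chromosome X, and 16 of the 49 small RNA genes lie on chromosome I and 8 on chromosome III. The list is also long in span, with a median of 4401 bp against 2003 bp for other genes, and among 5 equal classes of span the share of other genes ran from 16.4% in the shortest to 24.8% in the longest. Other genes weighted to the chromosomes and span classes of the list had a share of 24.8%, which would be 12.2 of 49 genes where 18 were found. The exact interval of the list's own share, from 23.4%, includes that value. Whether the list stands apart from genes alike in chromosome and span was not tested.

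The 4 RNA-dependent RNA polymerases were divided, with peaks at rrf-2 and rrf-3 and none at ego-1 or rrf-1. At rrf-3, which makes the antisense strand for endogenous 26G small RNAs, combined peak 1529 (chromosome II from 8162297 to 8162511) was centred 61 bp outside the lower-coordinate end. The overlapping peaks of the replicates were numbers 1404 (replicate 1) and 1657 (replicate 2). The number in a peak's name was taken as the authors' rank, with 1 the strongest. Scores are tied over many peaks, so every statement of strength here rests on this number alone. By it, the rrf-3 peak lay in the stronger part of all lists. At rrf-2, peak 1393 (chromosome I from 12106109 to 12106438) lay 161.5 bp outside the upper-coordinate end with overlapping peaks 1866 (replicate 1) and 1068 (replicate 2). A further combined peak, number 3187, lay 352 bp outside the same end. Among the 18 genes of the list with a peak, rrf-2 alone had more than 1 (5.56%), against 9.65% of other genes with a peak. The germline polymerase gene ego-1 had peaks 4843 and 3769 in the replicates but no combined peak within 500 bp of an end. Its relative rrf-1, the polymerase of the exogenous RNAi response in the soma, had peak 3905 in replicate 1 and none in replicate 2.

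Among the mutator and associated factors the strongest peak was at mut-15, which encodes a component of the Mutator foci that house small RNA amplification. Combined peak 258 (chromosome V from 15002137 to 15002430) lay 259.5 bp outside the gene with overlapping peaks 283 (replicate 1) and 242 (replicate 2). Its centre was nearer to an end of the neighbour fib-1, at 174.5 bp. The foci's scaffold gene mut-16 had peak 3405 (chromosome I from 10079495 to 10079824), centred 499.5 bp away and thus at the very edge of the window. It overlapped peak 3448 in replicate 1, whose centre lay beyond the window, and peak 3565 in replicate 2. At mut-7, which encodes an exonuclease, peak 4016 (chromosome III from 9538712 to 9539041) lay 154.5 bp outside the gene and was peak 4070 in replicate 1 but only peak 6814 in replicate 2. The 3 mutator genes thus span almost the whole range of peak numbers. Neither mut-14, which encodes a DEAD-box helicase, nor rde-2, which encodes a partner of MUT-7, had a combined peak.

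Of the factors that act with target transcripts during amplification, rde-8 and rde-10 carried peaks in the stronger part of the list. Combined peak 1044 (chromosome IV from 7103368 to 7103568) lay 207 bp outside rde-8, which encodes an endoribonuclease, with overlapping peaks 1045 and 1010 in replicates 1 and 2. At rde-10, peak 1248 (chromosome I from 3546954 to 3547149) lay 19.5 bp outside the gene, the shortest distance in the list, and was peak 1263 and peak 1347 in replicates 1 and 2. The partner gene rde-11 had no combined peak and only peak 14028 of replicate 1, and the helicase gene rde-12 had peaks 6200 and 13636 in the replicates. The Tudor-domain gene ekl-1, whose product works with EGO-1 and DRH-3, had peak 1745 (chromosome I from 7094940 to 7095108) 462 bp away, with peaks 2028 and 1432 in the replicates. No combined peak lay at drh-3, which encodes a Dicer-related helicase.

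Dicer itself and its double-stranded RNA partner carried peaks, as did drh-1 and eri-5. At rde-4, which encodes the double-stranded RNA-binding partner of Dicer, combined peak 838 (chromosome III from 10218566 to 10218792) was centred 33 bp outside the gene with overlapping peaks 821 (replicate 1) and 840 (replicate 2). At dcr-1, which encodes Dicer, peak 3677 (chromosome III from 8080142 to 8080471) lay 25.5 bp outside the gene with overlapping peaks 3899 (replicate 1) and 4419 (replicate 2). The rde-4 peak was therefore among the stronger ones and the dcr-1 peak among the weaker ones. At drh-1, a helicase gene of the antiviral response, peak 3243 (chromosome IV from 6613311 to 6613640) lay 122.5 bp outside the gene, with peaks 3234 and 3315 in the replicates. At eri-5, which encodes a Tudor protein that links RRF-3 to Dicer, peak 3920 (chromosome IV from 2390264 to 2390593) lay 392.5 bp away, with peaks 4450 and 3411 in the replicates. Among the other 3 genes of this class, eri-1 had no peak in any list. The remaining ones, eri-3 and the small RNA methyltransferase gene henn-1, had peaks in replicate 2 alone, numbers 7917 and 4251.

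The 3 Argonaute genes with a peak encode a nuclear, a cytoplasmic and a microRNA Argonaute. At hrde-1, the germline nuclear Argonaute of heritable silencing, combined peak 1892 (chromosome III from 4176283 to 4176472) lay 218.5 bp outside the gene with overlapping peaks 1835 (replicate 1) and 2008 (replicate 2). At wago-4, a cytoplasmic Argonaute of inherited RNAi, peak 1914 (chromosome II from 12919186 to 12919356) lay 280 bp outside the gene, with peaks 1881 and 2055. At alg-2, a microRNA Argonaute, peak 2156 (chromosome II from 873539 to 873681) lay 398 bp inside the gene, with peaks 2145 and 2093. The 3 peaks held similar places in all lists. That at alg-2 was the only one of the 18 whose centre fell within its own gene.

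Argonaute genes had a peak in 18.8% of cases, near the 19.6% of other protein-coding genes, and thus lacked one about as often. The other 13 protein-coding Argonaute genes had no combined peak at an end. Among them are csr-1, which licenses germline transcripts, prg-1, the Piwi protein of the piRNA pathway, rde-1, the primary Argonaute of exogenous RNAi, and ergo-1, which binds 26G small RNAs. The paired genes alg-3 and alg-4, which act in the male germline, had no peak in any list, and neither did ergo-1 nor sago-2. The paralogue of alg-2, alg-1, had peaks 8750 and 10552 in the replicates at its ends and a combined peak centre inside its span, more than 500 bp from both ends. At rde-1 the replicates had peaks 4802 and 7790, and at nrde-3, the somatic nuclear Argonaute, peaks 8486 and 22353. The other 6 Argonaute genes, csr-1, ppw-1, ppw-2, prg-1, sago-1 and wago-1, had a peak in a single replicate. That at sago-1 was peak 5984 of replicate 2, although the nearest combined peak was 36169 bp away.

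In nuclear RNAi, nrde-4 and nrde-2 carried peaks at opposite ends of the ranking. At nrde-4, combined peak 919 (chromosome IV from 7654452 to 7654678) lay 303 bp outside the gene, with peaks 822 and 1107 in the replicates. At nrde-2, which nuclear Argonautes recruit to nascent transcripts, peak 4439 (chromosome II from 10247667 to 10247773) lay 82 bp outside the gene, with peaks 4699 and 4398. It was the weakest of the 18. The remaining factor, nrde-1, had a combined peak 992.5 bp from an end. With the nuclear Argonautes hrde-1 and nrde-3 counted as well, 3 of 5 nuclear RNAi genes carried a peak (exact 95% interval 14.7 to 94.7%, which includes the 19.6% of other genes).

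The strongest peak of the whole list was at the microRNA gene pash-1, which encodes the partner of Drosha in the Microprocessor. Combined peak 240 (chromosome I from 10598410 to 10598711) lay 112.5 bp outside the gene with overlapping peaks 153 (replicate 1) and 300 (replicate 2). Its centre was nearer to an end of the neighbour T22A3.6, at 71.5 bp. The Drosha gene drsh-1 had peaks 8124 and 6357 in the replicates and none in the combined list. The GW182-related genes ain-1 and ain-2, whose products act with microRNA Argonautes, likewise had weak peaks in both replicates, numbered from 9460 to 21066. A combined peak centre lay inside ain-2, 740.5 bp from an end and thus beyond the window. With alg-1 and alg-2 counted as well, 2 of 6 microRNA genes carried a combined peak (exact 95% interval 4.33 to 77.7%, against 19.6% of other genes), and all 6 had a peak in both full replicate lists, against 33.2% of other genes.

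None of the 4 transport genes carried a combined peak. The dsRNA channel gene sid-1, the kinase gene sid-3 and the endosomal protein gene sid-5 had peaks in both replicates, the strongest of which was number 5760 at sid-1 in replicate 1. The uptake receptor gene sid-2 had no peak within 500 bp of an end in any list, and its nearest combined peak centre was 902.5 bp away. The transport genes sid-3 and sid-5 lie on chromosome X, as do alg-1, nrde-3 and ain-1. All 5 chromosome X genes of the list lacked a combined peak within 500 bp of an end, on a chromosome where 11.7% of other genes had one.

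**Figure D2:**
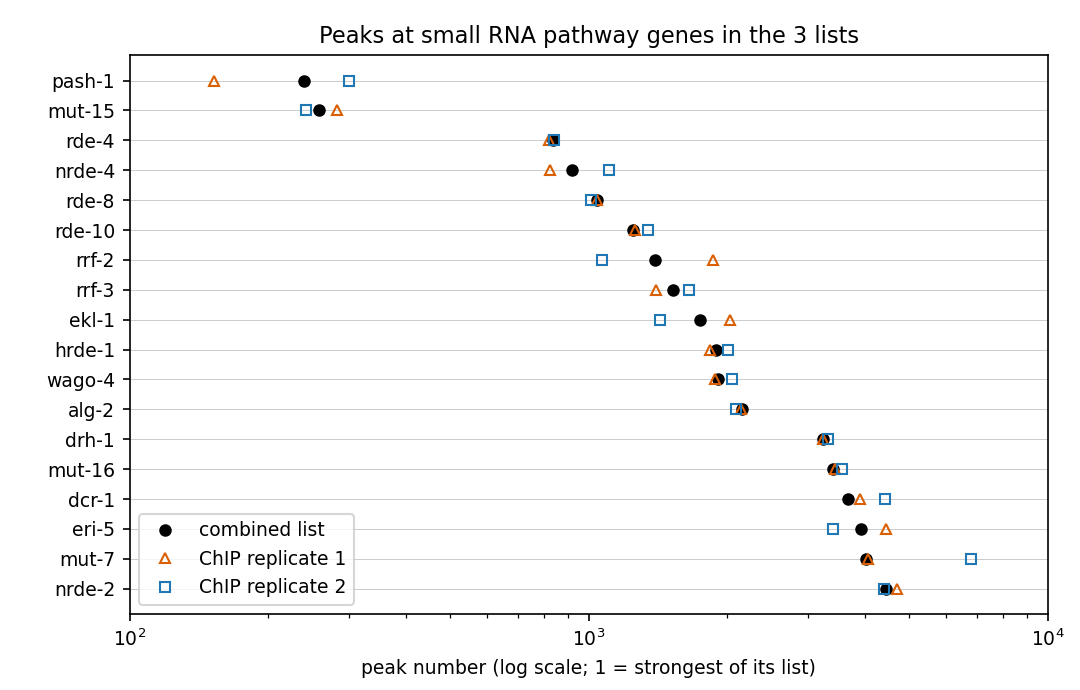
Peak number, on a log scale with 1 the strongest of each list, of the peak at each of the 18 small RNA pathway genes in the combined list and of the overlapping peak in EFL-1 ChIP replicates 1 and 2. The order is nearly the same in the 3 lists, from pash-1 and mut-15 to nrde-2; mut-7 stands apart in replicate 2 at number 6814.

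By peak number, the peaks at small RNA genes were of ordinary strength among EFL-1 peaks at genes. Their median number in the combined list was 1818.5, against 1894 for the other genes with a peak, and 12 of 18 (66.7%) belonged to the stronger 2483 combined peaks, against 61.8%. Each of the 18 overlapped a peak in both replicates, with median numbers of 1873.5 in replicate 1 and 1832.5 in replicate 2, against 1907 and 1933 for other genes. The combined list was made from these replicates with a step that favours agreement between them, per its source field, so this recurrence is no separate evidence. Among the 500 strongest peaks the list and the other genes had like shares, 2 of 49 (4.08%) against 3.14%. Among the 1000 strongest they were 4 of 49 (8.16%) against 5.77%, and among the 2000 strongest 11 of 49 (22.4%) against 10.3%. With 3000 peaks the shares were 24.5% against 13.9%, and with 4000 they were 32.7% against 17.1%, so that the gap did not widen evenly. Taking as many of the strongest peaks from a single replicate gave 20 of 49 genes (40.8%) in replicate 1, against 19.4% of other genes, and 19 (38.8%) in replicate 2, against 19.2%.

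**Figure D3:**
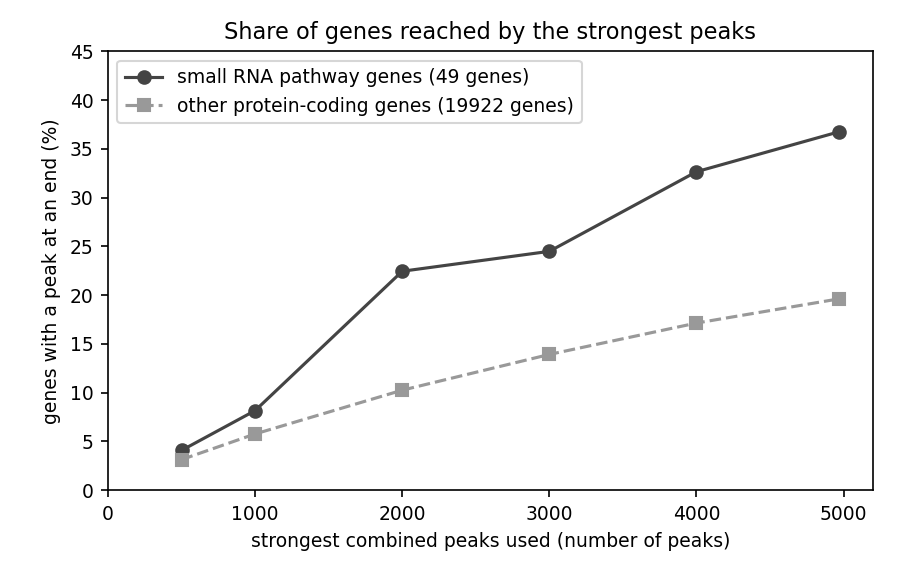
Percent of genes with a peak at an end (vertical axis) when only the strongest combined peaks are used (horizontal axis, number of peaks), for 49 small RNA pathway genes and 19922 other protein-coding genes. The lines start close together, at 4.08% and 3.14% for 500 peaks, and end at 36.7% and 19.6% for all 4966.

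Peaks lay just outside the annotated gene. For 17 of the 18 genes (94.4%) the centre was outside the gene span, against 89.8% of the other 3907 genes with a peak. The median distance between centre and gene end was 184 bp for small RNA genes and 194.5 bp for the others. No small RNA gene had a combined peak centre within 500 bp of each end, which was the case for 1.92% of all other genes. A single peak can meet this at a short gene, and no small RNA gene is in the shortest class of span (30 to 1049 bp). The peak was at the lower-coordinate end in 10 genes (alg-2, wago-4, eri-5, pash-1, ekl-1, mut-7, mut-15, mut-16, rde-10 and rrf-3) and at the upper-coordinate end in the remaining 8. None of the 18 peaks was wider than the fixed width of 330 bp that the caller gave to many peaks, and 6 had exactly that width, so that widths carry little information here.

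**Figure D4:**
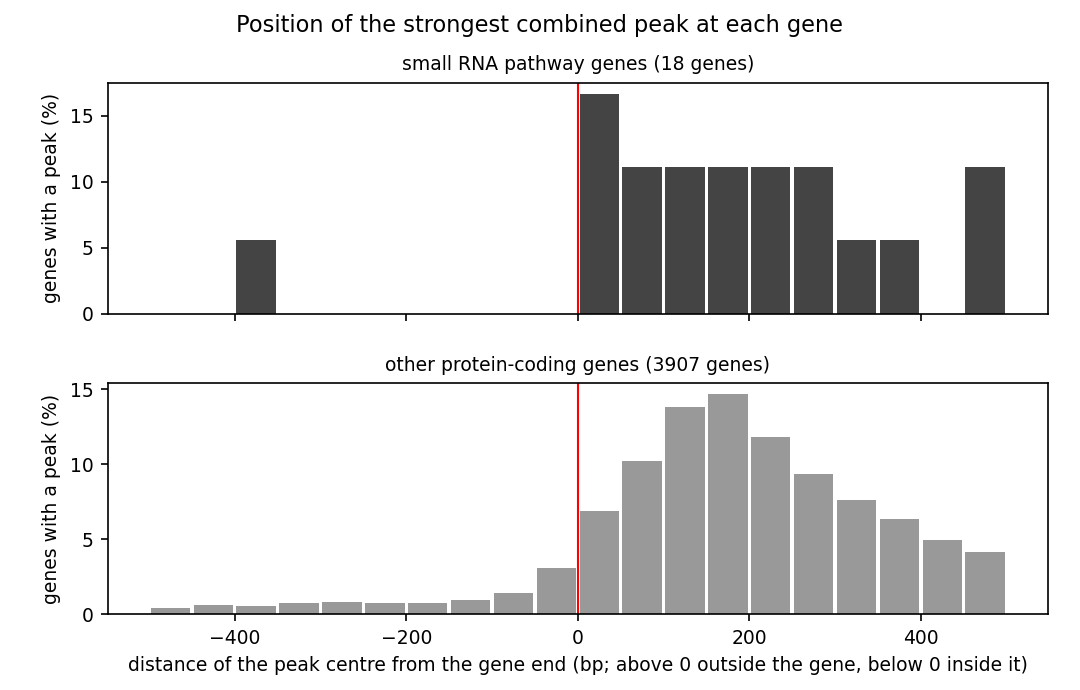
Distance in bp between the centre of the strongest combined peak and the gene end beside it, above 0 outside and below 0 inside the gene, in 50 bp steps as percent of the genes with a peak. Upper panel, 18 small RNA pathway genes; lower panel, 3907 other protein-coding genes; in both, most centres lie between 0 and 300 bp outside the gene.

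Worm genes are closely spaced, and 13 of the 18 peaks (72.2%) also lay within 500 bp of an end of another protein-coding gene, against 62.4% for other genes with a peak. The own gene's end was the nearest at 12 of 18 (66.7%), close to the 68.9% of other genes with a peak, and the end of a neighbour was nearer at 6. These were hrde-1 (neighbour C16C10.13, 62.5 bp from the centre), eri-5 (trap-3, 169.5 bp), pash-1 (T22A3.6, 71.5 bp), nrde-4 (cima-1, 270 bp), mut-15 (the fibrillarin gene fib-1, 174.5 bp) and rde-8 (ZC477.3, 82 bp). Both strongest peaks of the list, at pash-1 and mut-15, are thus among the shared ones and lie nearer to another gene. The rrf-3 peak lay 234 bp from emb-27 and the dcr-1 peak 322.5 bp from apc-2, both of which encode subunits of the anaphase-promoting complex, although in both cases the small RNA gene was closer; these neighbours were singled out after their names were seen. The 5 peaks that no other protein-coding gene shared were at alg-2, drh-1, nrde-2, mut-16 and rrf-2. When each peak was given only to the nearest gene, 12 of 49 small RNA genes (24.5%) kept one, against 13.9% of other genes.

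Weaker peaks of the single replicates were also found at many small RNA genes. In the full lists, which hold 22275 and 22464 peaks, 35 of 49 genes (71.4%) had a peak at an end in replicate 1, against 44.3% of other protein-coding genes, and 36 (73.5%) in replicate 2, against 44.9%. Both lists had a peak at 29 genes (59.2%), against 33.2% of others, though not always at the same end. Of these 29, 18 were the genes with a combined peak. The other 11 were alg-1, nrde-3, rde-1, ego-1, rde-12, ain-1, ain-2, drsh-1, sid-1, sid-3 and sid-5. A peak in replicate 1 alone was found at 6 genes and in replicate 2 alone at 7, together 26.5% of the list and near the 22.7% of other genes. In neither list was there a peak at 7 genes (14.3%, against 44.1% of others), namely alg-3, alg-4, ergo-1, sago-2, eri-1, mut-14 and sid-2. Read depth is unknown, so a gene without a peak is one at which none was called, not one shown to be free of EFL-1.

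**Figure D5:**
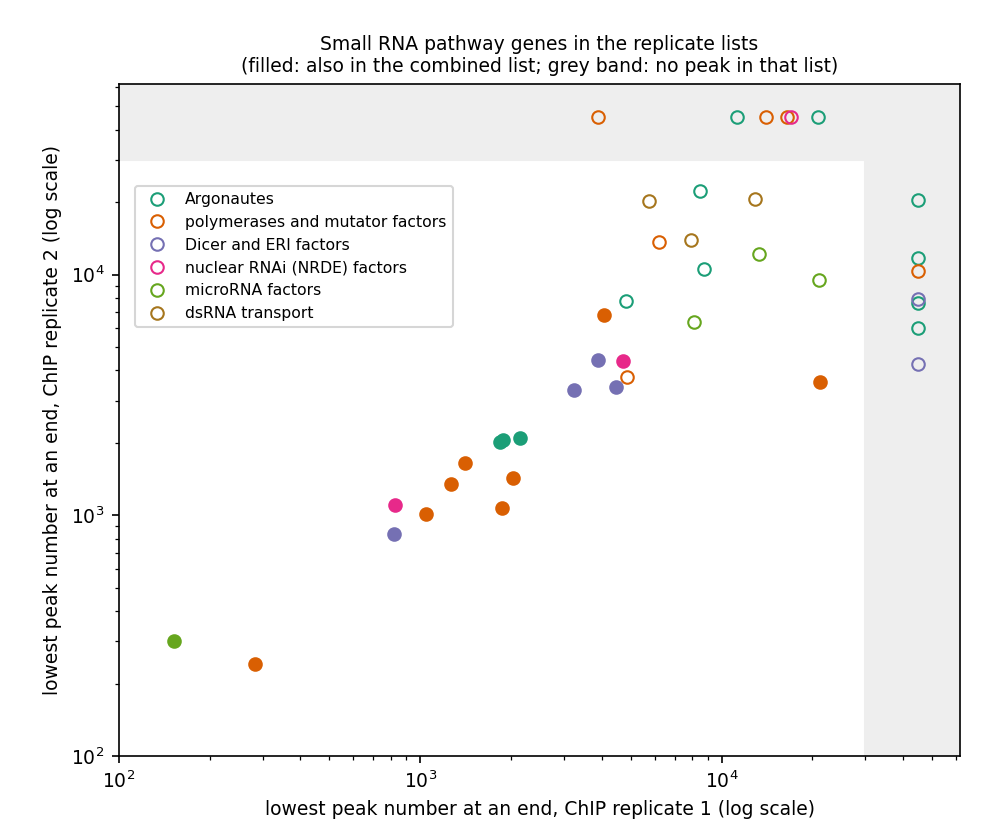
Lowest peak number within 500 bp of an end of each small RNA pathway gene in EFL-1 ChIP replicate 1 (horizontal) and replicate 2 (vertical), both on log scales, coloured by class; filled points also have a combined peak and points in the grey bands have no peak in that replicate. Most filled points lie at low numbers in both lists; mut-7 is number 6814 in replicate 2, beyond some open points, and the replicate 1 peak near mut-16 is number 21168 because the stronger one, number 3448, is centred just beyond the window.

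A second list of 42 small RNA pathway genes, of which 37 were matched as protein-coding, gave a share of 17 of 37 (45.9%, exact 95% interval 29.5 to 63.1%), against 19.6% of the protein-coding genes outside the list of 49. Its median span was also long, 3347 bp against 2003 bp, and the 19.6% is not weighted to its chromosomes or spans. With each peak given only to the nearest gene, its share was 29.7%, against 13.9% of other genes. Of its 12 piRNA factors 7 carried a peak, among them tost-1 (combined peak 161) and tofu-6 (peak 1206), which encode parts of a complex that handles piRNA precursors, and snpc-4 (peak 1176), which acts in piRNA transcription. The others with a peak were pid-2, tofu-1, tofu-2 and tofu-5. No combined peak lay at an end of the remaining 5, erh-2, parn-1, pid-1, prde-1 and tofu-4. Among its 7 microRNA and chromatin genes 3 had a peak, namely vig-1 (peak 156) and tsn-1 (peak 609), whose products are known as components of the silencing complex, and xrn-2 (peak 4036). The other 4, nhl-2, paxt-1, set-25 and set-32, had none. Of its 4 Dicer and ERI genes, eri-7 and eri-9 had a peak, and eri-6 and zfp-1 did not. In the mutator and RNAi spreading group 5 of 10 genes had a peak, including simr-1 (peak 605, at 499.5 bp on the edge of the window), nyn-1 (peak 3917) and nyn-2 (peak 3070). None of its 4 additional Argonautes, alg-5, vsra-1, wago-5 and wago-10, had one. The share was 58.3% for its piRNA factors (exact 95% interval 27.7 to 84.8%). It was 42.9% for its microRNA and chromatin genes (9.90 to 81.6%). The mutator and RNAi spreading group had 50% (18.7 to 81.3%), and the Dicer and ERI genes had 50% (6.76 to 93.2%). Only the first of these intervals excludes the 19.6% of other genes. Over both lists, 3 of 20 protein-coding Argonaute genes carried a peak (15%, exact 95% interval 3.21 to 37.9%, which includes 19.6%).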

How the data were processed

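EFL-1 peak lists in WormBase WS220 coordinates were read for 2 ChIP replicates and for 1 combined list. The source field of the lines names SPP and IDR, per the file headers and lines; for versions, thresholds, aligner and the use of the inputs, the sources used here say nothing. The authors deposited a score without a unit for each peak. It is 4.001 in all 4966 combined peaks. The top score is shared by 5002 peaks in replicate 1 and by 3810 in replicate 2. Of the overlapping peaks at the list's 18 genes, 18 in replicate 1 and 15 in replicate 2 have it. Peaks were therefore ranked by the number in their names, which the scores cannot check within a tie. Read depth is unknown.

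Genes were taken from the RefSeq table of WBcel235, which differs from WS220; positions were not converted, and the shift between the assemblies was estimated as described. The table gives no strand, so either end of the gene was used in place of the planned annotated start, and promoter sequences and motifs were not analysed here. Distances run from the peak centre to the annotated end. Replicate peaks were matched by at least 1 bp of overlap. The gene lists and members were chosen with earlier results of these data known, so shares are descriptions without a test. Every gene of the list of 49 with a combined peak was named, as planned, and its unbound genes by class. Genes of the second list were named in part. The calling code was run on simulated peaks placed at ends of genes sampled from the 19971. Of the simulated peaks whose centre stayed within the window, 100% were recovered, which checks the code and not the data. Alternatives were other windows, any overlap, nearest gene only, stronger peaks, single replicates and peaks in both full lists. Python 3.11.15, numpy 2.4.6, pandas 2.3.3, scipy 1.17.1 and matplotlib 3.10.9 were used.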

Additional observations from a re-analysis of the deposited data

How the results depend on the processing

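The list's share stayed above the unweighted share of other protein-coding genes under each of the 11 alternatives run, from 1.71 to 2.11 times. These alternatives reuse the same genes and overlapping sets of peaks. Peaks outside the gene were an alternative chosen after the data were seen. Other genes weighted to the list's chromosomes and span classes had a share of 24.8% at the main setting. No alternative was run with that weighting. Of the alternative values, 87 stayed within the exact interval of the value reported and 17 moved out of it. The intervals of small classes are so wide that staying within them is no sign of stability. For other protein-coding genes, whose interval is narrow, most values moved. The list's share was 22.4% at 250 bp and 59.2% for a peak in both full replicate lists. For other protein-coding genes it was 13.1, 17.8, 20.8 and 24.8% at 250, 400, 600 and 1000 bp, 21.3% with any overlap, 13.9% with the nearest gene only, 12.1% with the stronger 50% of the list, 33.2% in both full replicate lists and 17.8% for centres outside the gene. With the stronger 50% the further pathway genes had 27.0% and the Dicer and ERI factors 14.3%. At 1000 bp the NRDE factors reached 100%. The microRNA factors had 0% with the nearest gene only and 100% in both full replicate lists, where the transport genes had 75.0%. Wider windows and longer lists raise shares by construction. A combined list without one of the replicates could not be made; the 4966 strongest peaks of single replicates gave 38.8 to 40.8% for the list, adding ego-1 in both, rde-1 and rrf-1 in replicate 1 and henn-1 in replicate 2, and losing mut-16 in replicate 1 and mut-7 in replicate 2, against 19.2 to 19.4% for other genes. No paired analysis was possible because ChIP and input values could not be set side by side: the results come from ChIP peak lists and from no test between samples. The planned motif alternatives were not run.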
